A study of Mus musculus with 4 samples.

Results

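The 34 genes described here encode products of the exocrine pancreas, measured in mouse spleen. They were chosen by their names as acinar cell genes and selected on their deposited levels, since they had already been seen to stand high in wild type replicate 2. Each gene was looked up by its symbol in the platform's probe table. A probe set was found for 32 of the 34, out of 23309 probe sets in all, and each of the 32 had 1 probe set that carried no other symbol. The array levels of Pnlip, pancreatic triglyceride lipase, and Klk1, a tissue kallikrein, were not analysed here. The arrays held total RNA from the spleens of 4 individual mice of the 129Sv strain, 1 array each. All 4 mice had the genotype RBP-J flox/flox, in which loxP sites flank the gene of RBP-J, a transcription factor of the Notch pathway. The renin genotype was Ren1d+/+ in the 2 wild type mice and Ren1dcre/cre in the 2 leukaemic mice, so that cre is made where this renin gene is active. Wild type replicates 1 and 2 were females of 80 and 81 days with spleens of 0.12 g and 0.16 g. Leukaemic replicate 1 was a female of 107 days with a spleen of 0.7 g, and leukaemic replicate 2 a male of 93 days with a spleen of 0.47 g. Effects of the renin genotype, cre and its action at the loxP sites, age and disease cannot be told apart in this design. Sex was not balanced either, since the only male was leukaemic.

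Acinar cells of the pancreas make digestive enzymes, mostly as inactive precursors, and store them in zymogen granules. Cholecystokinin, a gut hormone, triggers release of the granules into the duct. Transcription of these enzymes rests on PTF1, a complex of the acinar factor Ptf1a, an E protein and Rbpjl, a relative of RBP-J that takes its place in the mature acinar cell. The E protein and Ptf1a together contact an E-box, and Rbpj or Rbpjl a nearby TGGGAA core.

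RefSeq promoters (GRCm38.p6, 250 bases before to 50 after the gene start) were at hand for 26 of the 34 genes. A search of both strands for the E-box CANNTG and for the core TTCCCA or TGGGAA found the core in 18 of the 26 (69.2%), against 25.6% of all 32851 promoters of the same length. An E-box was present in 21 (80.8%), against 72.3%. Both motifs, not overlapping and with a gap of at most 20 bases, were present in 7 (26.9%), against 5.21%. These are matches to letters and were not tested as binding sites. The sequences below are those of the 3 genes of largest excess in wild type replicate 2 (Reg1, Cpb1 and Cpa1), of Rbpjl, the PTF1 subunit gene, and of Aqp8, the gene of smallest excess. Capitals mark E-boxes and cores. They lie at chr6:78425733-78426032 (plus strand, Reg1), chr3:20275684-20275983 (minus strand, Cpb1), chr6:30638968-30639267 (plus strand, Cpa1), chr2:164402944-164403243 (plus strand, Rbpjl) and chr7:123462044-123462343 (plus strand, Aqp8).
Reg1: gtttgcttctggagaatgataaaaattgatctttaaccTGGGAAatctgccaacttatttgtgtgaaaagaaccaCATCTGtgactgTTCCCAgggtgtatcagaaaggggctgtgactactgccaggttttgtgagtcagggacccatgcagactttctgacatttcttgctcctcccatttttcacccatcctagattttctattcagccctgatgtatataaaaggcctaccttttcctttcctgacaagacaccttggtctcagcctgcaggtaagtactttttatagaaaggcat
Cpb1: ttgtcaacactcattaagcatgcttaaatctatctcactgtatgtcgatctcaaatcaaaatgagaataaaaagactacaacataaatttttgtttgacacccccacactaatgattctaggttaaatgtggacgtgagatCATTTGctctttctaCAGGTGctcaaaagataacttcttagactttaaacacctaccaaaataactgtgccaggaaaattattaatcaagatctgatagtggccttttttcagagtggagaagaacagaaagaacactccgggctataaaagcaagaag
Cpa1: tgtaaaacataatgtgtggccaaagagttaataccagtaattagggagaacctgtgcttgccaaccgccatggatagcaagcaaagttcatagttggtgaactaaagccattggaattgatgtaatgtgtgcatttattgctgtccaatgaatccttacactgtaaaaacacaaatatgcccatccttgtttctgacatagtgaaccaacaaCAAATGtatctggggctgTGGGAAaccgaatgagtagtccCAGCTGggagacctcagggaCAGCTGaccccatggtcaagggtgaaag
Rbpjl: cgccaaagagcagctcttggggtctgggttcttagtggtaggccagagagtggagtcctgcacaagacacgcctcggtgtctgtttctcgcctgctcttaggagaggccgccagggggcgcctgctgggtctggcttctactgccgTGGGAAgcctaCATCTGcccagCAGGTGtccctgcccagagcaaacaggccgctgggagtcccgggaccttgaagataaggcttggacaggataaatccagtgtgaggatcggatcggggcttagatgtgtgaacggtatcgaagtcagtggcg
Aqp8: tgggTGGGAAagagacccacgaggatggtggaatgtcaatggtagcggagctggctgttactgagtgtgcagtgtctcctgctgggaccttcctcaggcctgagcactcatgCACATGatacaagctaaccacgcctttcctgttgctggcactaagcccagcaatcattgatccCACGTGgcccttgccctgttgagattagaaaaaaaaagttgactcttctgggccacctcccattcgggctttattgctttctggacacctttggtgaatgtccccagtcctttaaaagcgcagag

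Reg1 had 1 E-box with a core 6 bases away. Cpa1 had a core 12 bases from its nearer E-box, and Rbpjl had 5 bases between the motifs. Cpb1 held 2 E-boxes and 0 cores, while its excess in wild type replicate 2 was as large as that of Reg1 (6.12 each on the log2 scale). Aqp8 held both motifs, but farther apart than 20 bases. Pairs were present in Reg1, Cpa1, Ctrb1, Cel, Pdia2, Reg2 and Rbpjl, whose excesses ran from 6.12 to 0.47.

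**Figure D1:**
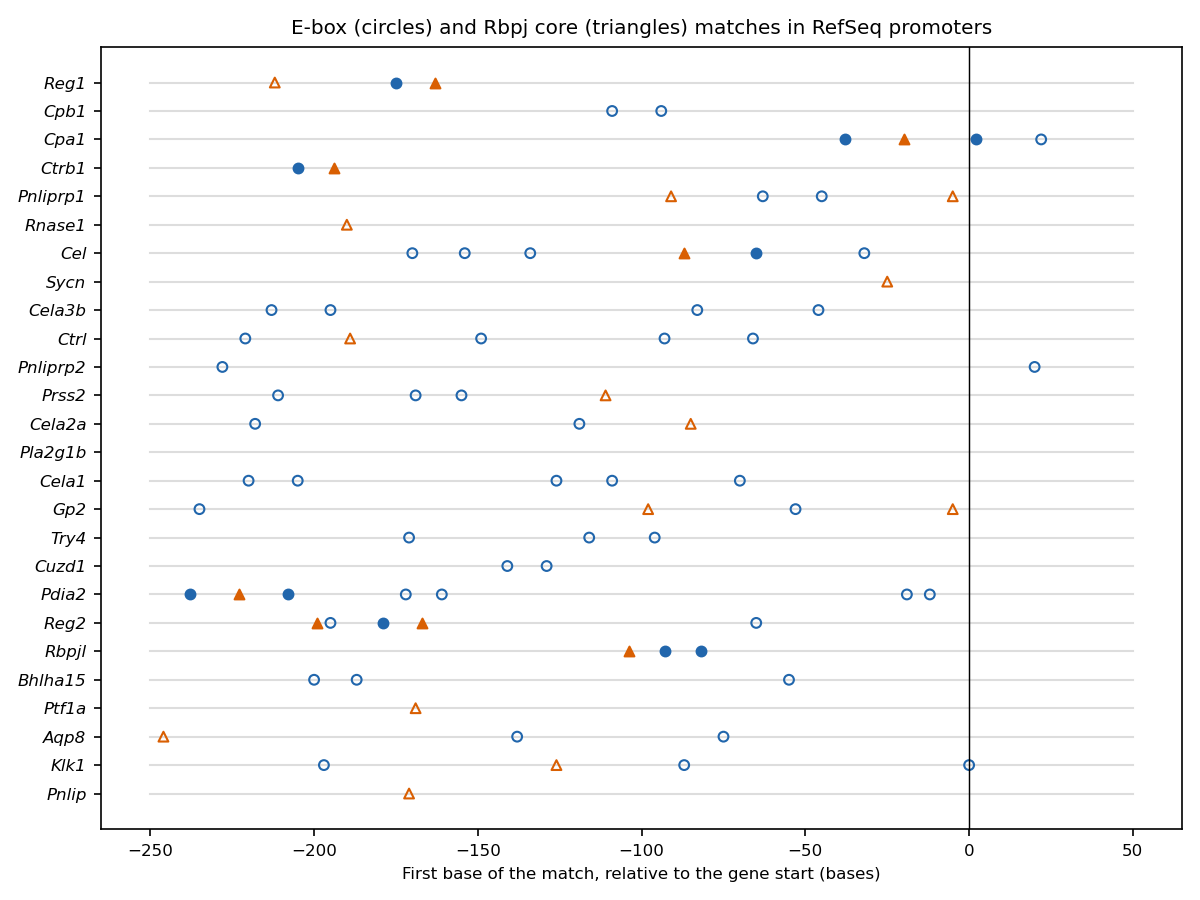
Position of the first base of each motif match relative to the gene start (in bases) in 26 RefSeq promoters, ordered from the largest to the smallest excess in wild type replicate 2, with Klk1 and Pnlip, which have no level, last. Circles are E-boxes, triangles are Rbpj cores, and filled symbols belong to a pair at most 20 bases apart, which 7 promoters hold.

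The arrays read as spleen. In wild type replicates 1 and 2 the 12 measured spleen identity genes, which include Cd79a of B cells, Cd3e of T cells and the macrophage gene Adgre1, had medians of 11.64 and 11.55 (deposited log2 value), and in leukaemic replicates 1 and 2 of 10.67 and 10.78. Excess in wild type replicate 2 means its log2 value minus the highest of the other 3 arrays. For these genes it lay between -0.44 and 0.13, and Nkx2-5 and Vcam1 had the largest, 0.13 and 0.01. Wild type replicate 1 was the highest array for 10 of the 12. Their median difference, wild type replicate 2 minus replicate 1, was -0.32. Of 10 precursor B cell genes, 7 were called higher in leukaemic spleens by limma at an adjusted p under 0.05, against 1.09% of all probe sets. Without wild type replicate 2, limma called 0 of all 23309 probe sets, these included. The largest excess in that list was that of Cd24a (-0.10), then Vpreb2 (-1.09).

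Wild type replicate 2 held the highest value of all 4 arrays for 32 of the 32 exocrine genes, against 37.9% of all probe sets. In 27 of the 32 it lay at least 1 above the highest other array, against 0.262% of all probe sets. Since the genes were picked for this pattern, these counts are a description and nothing is read from them. The median excess was 4.29, beside -0.09 over all probe sets. It was at least 2 in 23 genes, at least 4 in 19 and at least 6 in 3. None of the 32 was at least 1 above all other arrays in wild type replicate 1 or in either leukaemic array, where 29, 82 and 57 probe sets of the whole table were. Members just inside and just outside an excess of 1 were Cckar at 1.01 and Rbpjl at 0.47. A single mouse gives the excess, so it has no replicate error. In whole spleen RNA, more cells of a type and more RNA per cell cannot be told apart.

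**Figure D2:**
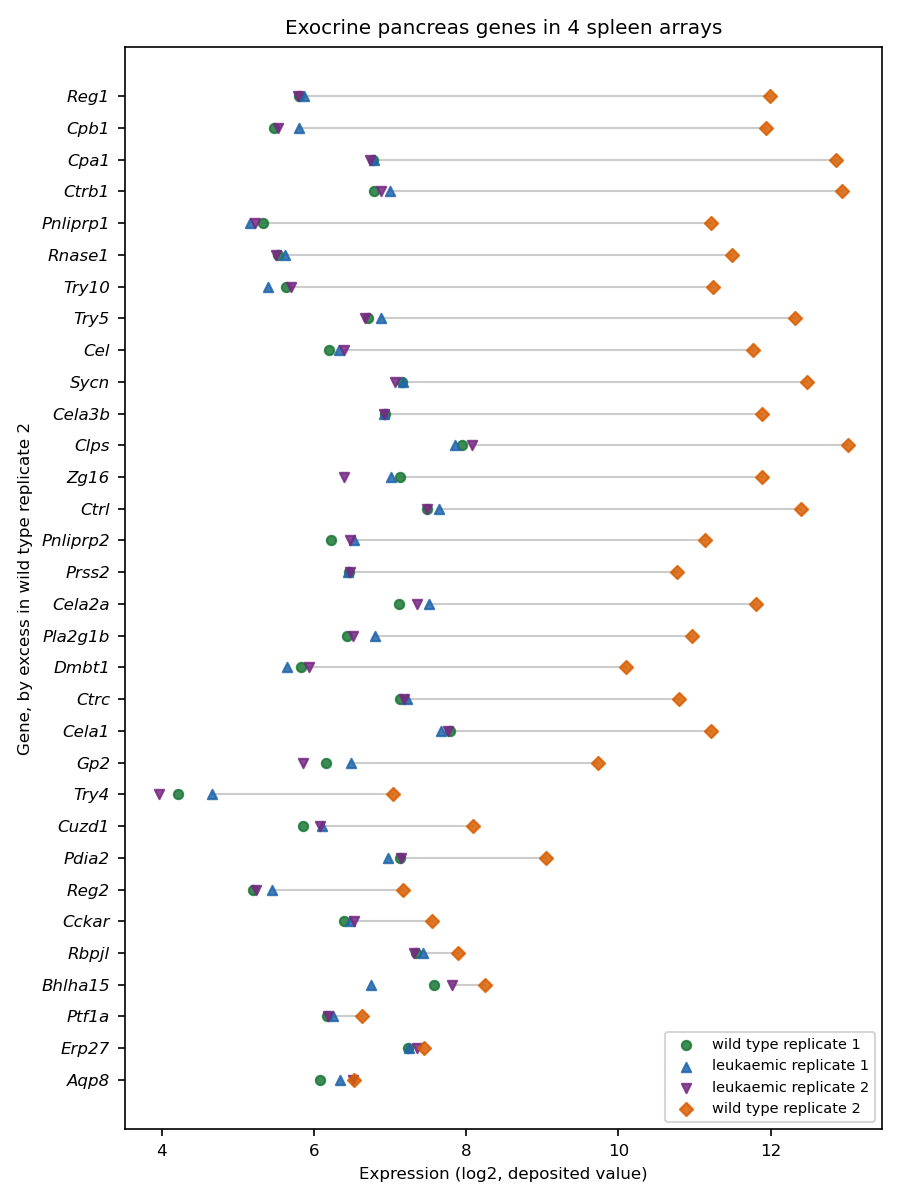
Deposited log2 expression (horizontal axis) of the 32 measured exocrine pancreas genes in each of the 4 spleen arrays, ordered from the largest to the smallest excess in wild type replicate 2. Each symbol is 1 mouse, and the grey line spans the gap between the highest other array and wild type replicate 2, which reaches 6.12 for Reg1 and 0.02 for Aqp8.

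Genes of proteases and their precursors were all at least 1 higher there (12 of 12 measured), with a median excess of 4.85. Cpa1, a carboxypeptidase that trims C-terminal residues, read 6.78 in wild type replicate 1, 12.86 in wild type replicate 2, and 6.79 and 6.74 in leukaemic replicates 1 and 2 (probe set 10537051). The 3 low arrays lay within 0.05 of each other. Cpb1, the carboxypeptidase for basic residues, read 5.48, 11.94, 5.81 and 5.53 in the same order of mice (probe set 10497463). Ctrb1, a chymotrypsinogen, read 6.79, 12.94, 7.005 and 6.89 (probe set 10581882). In both genes the wild type replicate 1 value was the lowest of the 4, so the wild type pair held the lowest and the highest value.

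Ctrl, a chymotrypsin-like protease, read 7.49, 12.40, 7.65 and 7.49, and Ctrc, the chymotrypsin that acts on trypsinogens, read 7.13, 10.79, 7.23 and 7.18. Excess was 4.75 for Ctrl and 3.57 for Ctrc. The elastase genes Cela1, Cela2a and Cela3b had excesses of 3.43, 4.29 and 4.96. Cela3b values outside wild type replicate 2 were 6.93, 6.93 and 6.92, a range of 0.01 that was the smallest of the 32 genes. Cela1 read 7.79, 11.22, 7.67 and 7.77, and Cela2a read 7.13, 11.81, 7.51 and 7.35.

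The trypsinogen genes Prss2, Try4, Try5 and Try10 form a family of close copies on chromosome 6. In the RefSeq gene order (GRCm38.p6) they stand inside the T cell receptor beta locus, between the segments Trbv30 and Trbd1. Try5 read 6.71 and 12.32 in wild type replicates 1 and 2, and 6.89 and 6.67 in leukaemic replicates 1 and 2. Try10 read 5.63, 11.25, 5.40 and 5.70, and Prss2 read 6.46, 10.77, 6.45 and 6.47. Try4 read 4.21, 7.04, 4.66 and 3.97, with an excess of 2.38. All 4 were highest in wild type replicate 2. Of the neighbours between Try10 and Prss2 that had a probe set of their own, Prss3, Gm5771 and Gm5409 had excesses of 2.88, 1.88 and 2.21. Signal may be shared among such copies, so the split between single trypsinogens is uncertain.

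Lipid-digesting enzymes gave a similar picture, with 5 of 5 measured genes at an excess of at least 4.17 and a median of 4.93. Clps, the colipase that anchors lipase to fat droplets, read 7.95, 13.01, 7.85 and 8.08. Pnliprp1, a lipase-related protein, read 5.33, 11.21, 5.16 and 5.22. Its relative Pnliprp2, a lipase, read 6.23, 11.14, 6.53 and 6.47. Cel, the bile salt-activated lipase, had an excess of 5.37, and Pla2g1b, the secreted phospholipase A2 of pancreatic juice, of 4.17. Rnase1, the pancreatic ribonuclease, read 5.53, 11.50, 5.62 and 5.50 and had an excess of 5.88.

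Among 7 proteins of zymogen granules and other secreted products, 7 had an excess of at least 1, between 1.73 and 6.12. Reg1, a secreted lectin-like protein of the acinar cell, read 5.81, 11.997, 5.87 and 5.80 (probe set 10539200) and had the largest excess of all. Its family member Reg2 read 5.20, 7.17, 5.45 and 5.24. Reg1 and Reg2 therefore differed in excess, 6.12 against 1.73, while both were low in the same 3 mice. Sycn, syncollin of the granule membrane, read 7.16, 12.48, 7.17 and 7.07. Zg16, a lectin of the granule, read 7.13, 11.88, 7.01 and 6.40. Gp2, the major glycoprotein of the granule membrane, read 6.16, 9.73, 6.48 and 5.85. Dmbt1, a scavenger receptor-like secreted protein, and Cuzd1, a granule protein with CUB and zona pellucida domains, had excesses of 4.15 and 1.99.

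Isomerases of the endoplasmic reticulum and proteins of the cell surface had 2 genes each, of which 1 each reached an excess of 1. Pdia2, a pancreatic protein disulfide isomerase, read 7.13, 9.05, 6.98 and 7.14, with an excess of 1.90 that lay between those of Cuzd1 and Reg2. Erp27, a non-catalytic relative of it in the endoplasmic reticulum, read 7.24, 7.45, 7.25 and 7.35. Cckar, the cholecystokinin receptor, read 6.40, 7.55, 6.47 and 6.53. Aqp8, a water channel, read 6.08, 6.53, 6.34 and 6.51, so that leukaemic replicate 2 lay within 0.02 of wild type replicate 2.

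None of the 3 transcription factor genes reached an excess of 1. Ptf1a read 6.18, 6.63, 6.25 and 6.18 and had an excess of 0.38. Rbpjl read 7.35, 7.90, 7.43 and 7.31 and had an excess of 0.47. Bhlha15, the factor also called Mist1, which shapes the secretory cell, read 7.58, 8.25, 6.75 and 7.82, with an excess of 0.44. Dim probe sets were somewhat higher in wild type replicate 2 in general. Of the 11136 probe sets that were no brighter in the other 3 arrays than the brightest exocrine gene, 61.5% were highest in that mouse, with a median excess of 0.06 and a 95th percentile of 0.36. The 3 factors lay just above that percentile, and Erp27 (0.10) and Aqp8 (0.02) below it. Since the genes were chosen on their values in that mouse, this placing is a description and not a test. Quantile normalization changed the 3 excesses to 0.24 for Ptf1a, 0.40 for Rbpjl and 0.41 for Bhlha15. Under it Aqp8 and Erp27 turned to -0.16 and -0.05, and Aqp8 was at -0.04 after median centring. The percentile of 0.36 is that of the deposited values and was not recomputed after either step.

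Bhlha15 is also a gene of plasma cells. Leukaemic replicate 1 held its lowest value, and the same mouse held the lowest value for 8 of 12 plasma cell genes. Among these was Derl3, a gene of protein quality control (9.68, 10.24, 8.47 and 9.67). Of the other 4, Slamf7, a surface receptor, was highest in that mouse (10.46, 10.50, 11.71 and 11.51), and Irf4, a transcription factor of plasma cells, was above both wild type spleens there (9.95, 9.85, 10.77 and 11.07). Mzb1 and Fkbp11 were lowest in wild type replicate 1. Derl3, Slamf7, Irf4, Mzb1 and Fkbp11 were chosen here after their values were seen. Of the 12 genes 0 had an excess of at least 1 in wild type replicate 2, near the 0.262% of all probe sets. Derl3 (0.57) and Sdc1, a plasma cell surface proteoglycan (0.43), had the largest, and the range was -1.21 to 0.57. Their part in the values of Bhlha15 was not tested.

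Ranked by level within an array, which mixes the abundance of a transcript with the strength of its probes, the exocrine genes stood apart in 1 array. In wild type replicate 2, 13 of the 32 were among the 1000 brightest probe sets and 3 among the 100 brightest, and 25 lay above the array's median. Clps, Ctrb1 and Cpa1 led that order. In wild type replicate 1, leukaemic replicate 1 and leukaemic replicate 2, none of the 32 was among the 1000 brightest, and 0, 0 and 1 lay above the median of the array. In those 3 arrays their values spanned 3.97 to 8.08, with a median of 6.49. The 60 genes of liver, nerve and retina, muscle and pancreatic islet spanned 3.53 to 9.45 there, with a median of 6.40. Levels of the exocrine genes in those mice are therefore not shown to be above background, and the differences given are not exact folds.

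**Figure D3:**
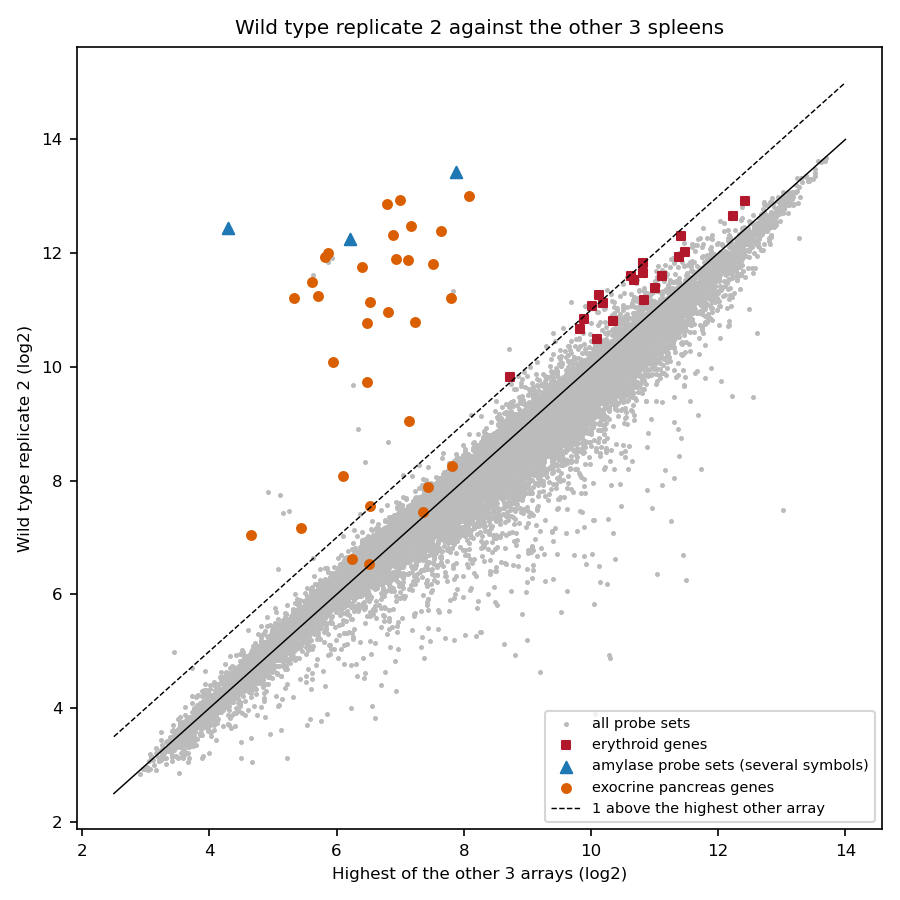
Wild type replicate 2 (vertical axis, log2) against the highest of the other 3 arrays (horizontal axis, log2) for all 23309 probe sets. The solid line marks equal values and the dashed line an excess of 1; 27 of 32 exocrine genes (orange circles) and the 3 amylase probe sets (blue triangles) lie above the dashed line, and erythroid genes (red squares) lie near it.

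Other acinar genes behaved alike in part. Of 23 measured genes of a further acinar list, 5 had an excess of at least 1, and the list's median was 0.28. These were Prss3 (2.88), Serpini2, a serpin of the pancreas (2.64), Reg3d (2.26), the trefoil peptide gene Tff2 (1.86) and the trypsin inhibitor gene Spink1 (1.37). Nr5a2 and Gata4, transcription factors active in acinar cells, were at 0.31 and 0.18, and Gata6 at -0.38. Amylase, which digests starch, was represented by 3 probe sets that the platform assigns jointly to Amy2a2, Amy2b and Amy2a5. They read 4.29, 12.45, 4.30 and 4.28 (probe set 10501544), 5.09, 12.25, 4.88 and 6.21 (10501494) and 7.61, 13.43, 7.87 and 7.61 (10501533) in wild type replicates 1 and 2 and leukaemic replicates 1 and 2. An excess of 8.15 in the first of these was larger than that of any of the 32 genes. Leukaemic replicate 2 was more than 1 above the other low arrays at 10501494 but not at the remaining pair. Amy1, the salivary and liver amylase, had an excess of 0.33. Of the 15 other single-symbol genes of largest excess, 2210010C04Rik came first at 5.99, reading 5.63, 11.62, 5.43 and 5.63. Gabra3, a subunit gene of the GABA-A receptor, was also among them at 2.57, with values of 6.34, 8.91, 6.12 and 6.21.

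Genes of other cell types of the pancreas did not share this size. Among 20 measured islet genes 0 had an excess of at least 1, near the 0.262% of all probe sets. The hormone gene Ppy (0.36) and the glucose transporter gene Slc2a2 (0.30) had the largest. Ins2 and Gcg, for insulin and glucagon, had excesses of 0.29 and 0.20. The islet median was 0.10. Of the 20 genes 18 were highest in wild type replicate 2, against 37.9% of all probe sets and 61.5% of the dim ones above. Lists of other organs and tissues ran from 1 of 6 mesothelium genes to 10 of 12 intestine genes. Of 14 duct genes 1 reached 1, the tetraspanin gene Tspan8 (1.05), followed by the mucin gene Muc1 (0.65), and the list's median was 0.09. Sctr and Cckbr, receptors for secretin and for gastrin, had excesses of 0.21 and 0.18 among 7 other genes linked to the pancreas.

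Genes of other organs and tissues were also read. Over all probe sets 0.262% had an excess of at least 1, so counts of 0 in these lists are near that share. None of 11 fat genes (Lep 0.26, Cidea 0.25), 6 mesothelium genes (Wt1 0.07, Krt14 -0.02), 10 stomach genes (Atp4b 0.28, Cblif 0.26) or 12 intestine genes (Lct 0.34, Cdx2 0.21) had an excess of at least 1. The same held for 14 liver genes (Tat 0.33, Ttr 0.28), 14 genes of nerve and retina (Gfap 0.45, Rbp3 0.45) and 12 muscle genes (Pvalb 0.20, Ckm 0.16). Of 36 genes of the general secretory machinery, such as those for chaperones and the translocon, 0 reached 1, and their median was -0.18, led by Edem1 and Creld2 (0.03 each).

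Erythroid genes moved in the same mouse. In a list of 20 measured genes, added after the data were seen, all 20 were highest in wild type replicate 2. Of these, 4 had an excess of at least 1. Over all probe sets the shares were 37.9% and 0.262%. The median excess of the erythroid genes was 0.84, and Trim10, an erythroid ubiquitin ligase, led with 10.12, 11.26, 9.91 and 9.80. In exocrine genes the median was 4.29. The part of the erythroid difference in the exocrine values was not tested.

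**Figure D4:**
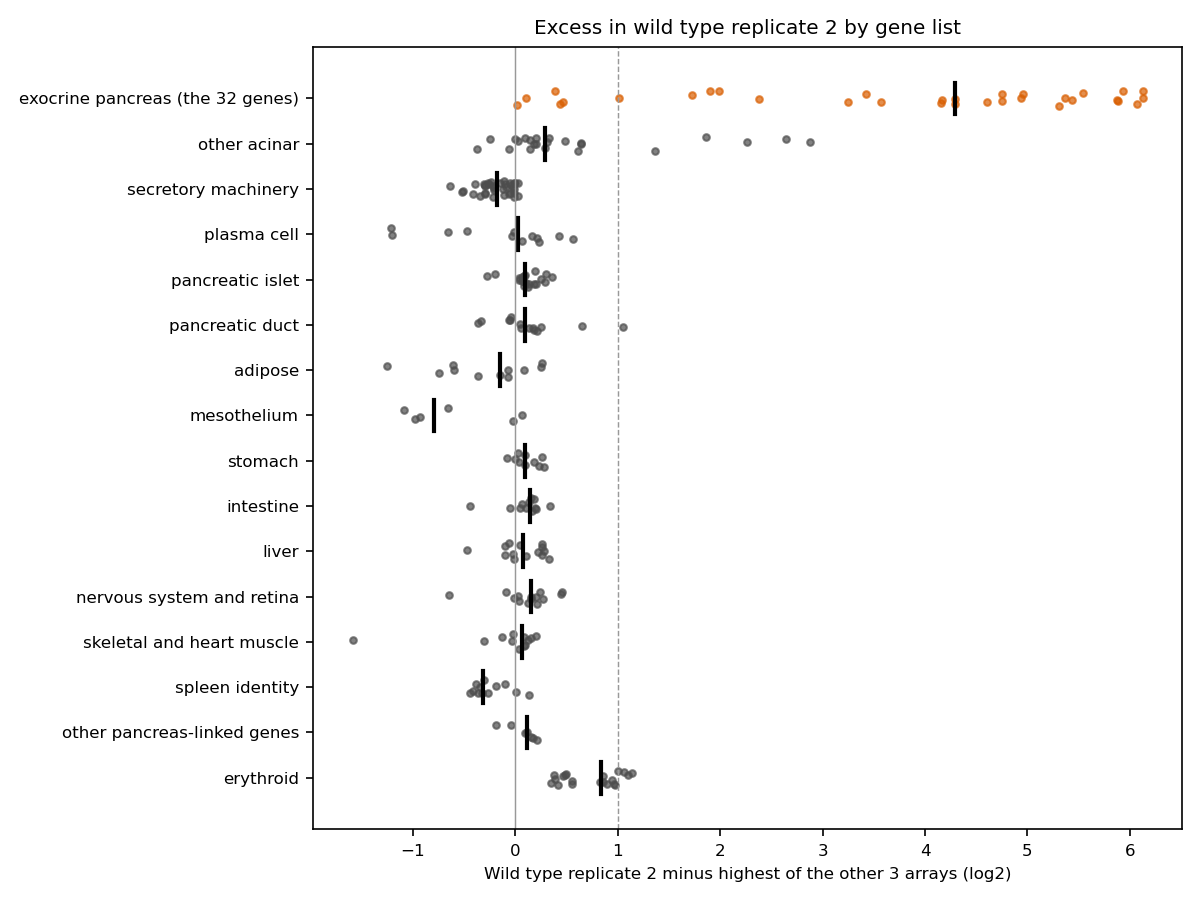
Excess of wild type replicate 2 over the highest of the other 3 arrays (log2) for the genes of each list; each point is a gene, shifted at random in height, and the black bar is the list's median. The solid line is 0 and the dashed line is 1; the medians are 4.29 for the 32 exocrine genes, 0.84 for erythroid genes and 0.10 for islet genes.

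The design's comparison asks how leukaemic spleens differ from wild type spleens. In the limma fit to all 4 arrays, 0 of the 32 exocrine genes were called at an adjusted p under 0.05, and 0 had an unadjusted p under 0.05. Over all probe sets 391 were called (1.68%), and 19.8% had an unadjusted p under 0.05. The contrast contains the array on which the genes were selected, so their values are a description. The median difference, leukaemic minus wild type, was -2.16 beside -0.03 over all probe sets, and 31 of 32 differences were negative. Cpa1 had means of 9.82 ± 4.30 in wild type and 6.77 ± 0.04 in leukaemic spleens (SD, n = 2). Its log2 difference of -3.05 had a standard error (SE) of 1.69 and a limma adjusted p of 0.40. Reg1 differed by -3.07 (SE 1.72, limma adjusted p = 0.41). SEs of the 32 genes had a median of 1.29, against 0.15 over all probe sets.

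Leaving out a mouse changed this count, with 1 residual degree of freedom instead of 2. Without wild type replicate 1, leukaemic replicate 1 or leukaemic replicate 2, limma called 20, 23 and 25 of the 32 lower in leukaemic spleens, against 0.129%, 0.845% and 2.71% of all probe sets. The estimated prior degrees of freedom were infinite in the last pair of fits, against 4.52 with all arrays, so every probe set was given the same variance there. All 3 of these fits keep wild type replicate 2, the array the genes were chosen on, so nothing is read from the counts. Each fit also leaves a lone array in a group and assumes that it varies like the pair of the other group.

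Without wild type replicate 2 the fit compared both leukaemic spleens with wild type replicate 1, and it assumes that a lone array varies like the leukaemic pair. Limma called 0 of the 32 genes and 0.0% of all probe sets. An unadjusted p under 0.05 was reached by 0 of the 32, against 15.9% of all probe sets. The median difference was 0.03, the same as over all probe sets (0.03), with 22 genes above 0 and 10 below. Differences ran from -0.42 (Zg16, SE 0.30) to 0.34 (Aqp8, SE 0.14, limma adjusted p = 0.37). For Cpa1 the difference was -0.01 (SE 0.12), and for Reg1 0.03 (SE 0.12). These p-values do not show that the groups were alike. The 32 genes were picked for standing high in wild type replicate 2 over the arrays of this fit. They were not shown to be above background in those arrays, so they had little room to differ. Nothing is read from their counts or p-values in this fit, nor from the contrast with all probe sets.

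**Figure D5:**
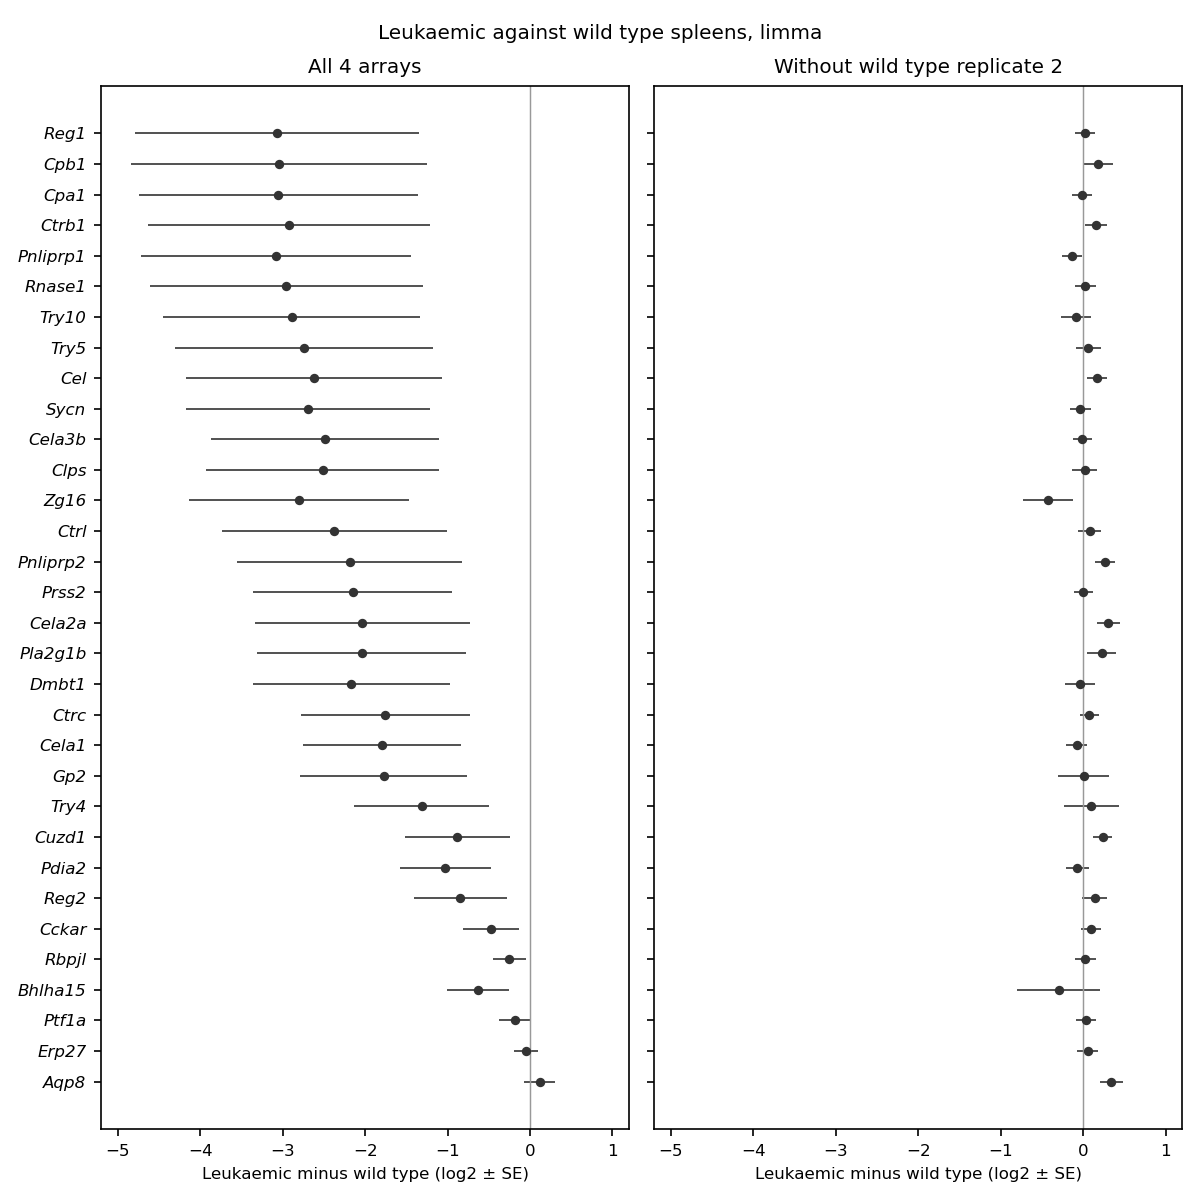
Log2 difference, leukaemic minus wild type, with its limma SE as a bar, for the 32 exocrine genes in the fit to all 4 arrays (left) and in the fit without wild type replicate 2 (right). The median moves from -2.16 to 0.03 and the median SE from 1.29 to 0.13.

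Among the 3 arrays low for these genes, 28 of the 32 differed by less than 0.5 from their highest to their lowest value. The median range was 0.21, against 0.26 over all probe sets. The other 4 were Bhlha15 (1.07), Zg16 (0.73), Try4 (0.69) and Gp2 (0.63). Leukaemic replicate 2 was the lowest array for Zg16, Try4 and Gp2, and leukaemic replicate 1 for Bhlha15. The 32 genes were not shown to be above background in these arrays, so nothing is read from the ranges. Median differences from wild type replicate 1 were 0.08 in leukaemic replicate 1 and 0.03 in leukaemic replicate 2, beside 0.04 and 0.01 over all probe sets. In 4 genes, Zg16, Pnliprp1, Cela3b and Cela1, both leukaemic spleens lay below both wild type spleens, against 25.5% of all probe sets, and in 0 above, against 23.2%. Nothing is read from either count, since all 32 genes were highest in wild type replicate 2, the array they were chosen on, which leaves none that could lie above it. In Cela1 the higher leukaemic value was 7.77 and the lower wild type value 7.79.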

How the data were processed

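Spleen RNA of 4 mice was labelled for Affymetrix whole-transcript arrays, 1 per mouse. Values were deposited on the log2 scale, 1 per probe set and array. Per the submitters' processing notes, the tools named are RMA, R 2.15.0 and limma 3.12.1, with no settings. Scan batches and detection calls are not analysed here, and the number of arrays limits the precision. Symbols came from the platform table. List genes were matched through Entrez identifiers and RefSeq (GRCm38.p6) symbols and synonyms.

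The group comparison used lmFit and eBayes of limma 3.58.1 (R 4.3.3) over all 23309 probe sets, with Benjamini-Hochberg adjustment over all of them. The design text calls replicates individual mice. The smallest exact two-sided permutation p for 2 against 2 mice is 0.333. Excess was computed in Python 3.11.15 and not tested. The scripts were tested on simulated data.

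The members, lists and tests were chosen with earlier results of these data known. Named were all members, the 15 other single-symbol genes of largest excess and the 2 leading genes of each further list; the erythroid list was added after the data were seen. Alternatives covered scaling, filters, the variance prior, features tested, the replicate block, each mouse left out and the measure of excess.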

Additional observations from a re-analysis of the deposited data

How the results depend on the processing

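The count of exocrine genes at an excess of at least 1 was 27, 26 after median centring or quantile normalization (Cckar then fell under 1, at 0.95 and 0.88), and 27 without any 1 of the other 3 mice, against their median, or against wild type replicate 1 alone. Leaving out 1 of the other 3 mice, or taking their median or wild type replicate 1 alone, can only keep or raise an excess. Those counts could therefore not fall, and nothing is read from them. Thresholds of 0.5 and 2, added after the data were seen, gave 27 and 23. Signs turned for Aqp8 (-0.0415 with median centring, -0.16 with quantile normalization) and Erp27 (-0.0477 with quantile normalization). Each gene had 1 probe set with 1 symbol, so the choice of probe set changed nothing.

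The count of exocrine genes called between groups was 0, and ranged from 0 to 25 with a mouse left out; the difference for Reg1 ranged from -6.16 to 0.0262. Leaving out the dimmest 33.3% of probe sets kept 24 of the 32 genes with all arrays and 10 without wild type replicate 2. This filter took the mean over the arrays of each fit. With all arrays, the high values of wild type replicate 2 counted towards passing it, so the 24 are no independent check. With the replicate block 16 were called, 0 of them higher in leukaemic spleens, beside 1605 of all 23309 probe sets. That fit holds the array the genes were chosen on, so nothing is read from the count. The replicate number names separate mice, and replicate differences of the 2 groups correlated at -0.080 over probe sets. Over all probe sets 391 were called, 253 of them higher, with 438 and 332 after median centring, 88 and 75 after quantile normalization, 980 with a trended robust prior, 1605 with the replicate block and 0 to 1103 with a mouse left out. The cause was not tested. Signal near background limits the low values, and 1 mouse carries the excess.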

Other observations

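Some transcripts were lower in wild type replicate 2 than in all other mice. Of 23309 probe sets 25 were at least 1 below the lowest other array. Car3, a carbonic anhydrase of fat and muscle, read 9.61 in wild type replicate 1, 7.08 in wild type replicate 2, and 9.38 and 8.87 in leukaemic replicates 1 and 2. Fabp4, the fatty acid-binding protein of fat cells and of some macrophages and endothelium, read 8.39, 7.32, 8.58 and 8.30. Of the 11 measured genes of the fat list, 3 were lowest in wild type replicate 2 and 3 were highest there. The list's median difference, wild type replicate 2 minus replicate 1, was -0.07. These differences ran from -1.08 (Fabp4) to 0.64 (Cidea). Rps25, a ribosomal protein gene, read 9.17, 7.56, 8.92 and 8.85, and Gas5, a host gene of small nucleolar RNAs, read 7.66, 6.47, 7.83 and 7.70. Car3, Fabp4, Rps25 and Gas5 were chosen after their values were seen.

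Of the 61 probe sets at least 1 higher in wild type replicate 2, 27 belong to the exocrine genes above, 23 to other single symbols, 8 to several symbols and 3 to none. Probe sets 10464298 and 10537014, without a symbol, read 11.92 and 11.84 in that mouse and at most 5.93 and 5.87 in the others. Probe sets 10537650 and 10544342, assigned jointly to Gm10334, Gm5771, Prss1 and Prss3, had excesses of 3.49 and 3.42. Snord118, a small nucleolar RNA, read 9.36, 11.35, 8.72 and 10.25. Ypel4, F930017D23Rik, Fhdc1 and Trim58 had excesses of 1.19, 1.16, 1.14 and 1.10, and Trim58 belongs to the erythroid list above.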
